A study of Homo sapiens with 6 samples.

Results

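The genes described here are 35 members of the NF-kB inflammatory response, with the lipocalin gene LCN2 among them. They were chosen by name, as the genes of the NF-kB subunits, their inhibitors and kinases and a set of inflammatory targets. Each was read from the array feature that carries its symbol in the platform annotation, and from the brightest one where there were several. All 35 were measured, out of 33616 named genes tested, and no filter on low values was applied. IKBKB had 2 features and the other 34 members had 1 each.

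Caco-2, the cell line measured, was derived from a human colon carcinoma and serves as a model of gut epithelium. The 2 groups were cells overexpressing apoM (genotype apoM) and cells labelled NC, with 3 Affymetrix arrays each. Both groups share the cell line. The labels do not say what NC stands for, which vector or promoter drove apoM, whether a line was 1 clone, or how long cells were cultured. Nor do they state separate cultures for the replicates, so that p-values cover only the spread of these 6 arrays, possibly a technical one, and few arrays mean limited precision.

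NF-kB is a family of transcription factors that act as dimers and are held in the cytoplasm by I-kappa-B proteins. When receptors for cytokines or bacterial products signal, the IKK complex phosphorylates the inhibitors, which are then degraded, and the dimers enter the nucleus and switch on chemokines, cytokines and their own inhibitors. In the intestinal epithelium the pathway is known for recruiting immune cells and for antimicrobial defence. LCN2, which encodes lipocalin 2, is one of its targets there; the protein binds bacterial siderophores and so keeps iron from bacteria.

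The array values fit the labels. APOM read 15.49, 15.56 and 15.85 on the log2 scale in apoM overexpression replicates 1, 2 and 3, against 5.38, 5.84 and 6.41 in NC replicates 1, 2 and 3. Of 16 colon epithelial markers, 15 were measured and none passed an adjusted p of 0.05 (limma), with 12 changes above 0 and 3 below. Of all genes tested, 2.06% passed and 62.9% had a change above 0. The 3 of these 15 with an unadjusted p under 0.05 were keratins, all higher with apoM: KRT18 with a change of 0.61 (adjusted p = 0.085, groups apart), KRT8 with 0.48 and KRT19 with 0.43. Such a p was found for 19.1% of all genes, 14.3% higher and 4.85% lower. The mean level of the list was 11.98 to 12.04 on the apoM overexpression arrays and 11.75 to 11.93 on the NC arrays. That of all genes was also higher with apoM, at 6.443 to 6.459 against 6.295 to 6.398 in NC. The part of these markers in the results below was not tested. The log2 level of EPCAM, an epithelial adhesion protein, averaged 17.38 ± 0.01 with apoM and 17.40 ± 0.03 in NC, and that of VIL1, the brush border protein villin, 13.11 ± 0.10 and 13.13 ± 0.09 (SD, n = 3 arrays each). LGALS4, of the same list, had a mean level of 3.99 with apoM and 3.80 in NC, near the low end of the scale. On the first principal component of all genes NC replicate 3, at -7.11, stood between the apoM overexpression arrays, at 24.3 to 41.9, and NC replicates 1 and 2, at -59.6 and -39.0.

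LCN2 was the member that rose with apoM, by 1.75-fold, and no member fell. Of the 35 members, 34 did not pass an adjusted p of 0.05 over all genes tested, where 2.06% of all genes passed, 1.7% higher and 0.357% lower. The members did not move as a block: 20 had a change above 0 and 15 below 0, and 62.9% of all genes had a change above 0. Their median log2 change was 0.08, against 0.09 over all genes tested, and single changes ran from -0.76 for NFKBIZ to 0.81 for LCN2. In 10 members, 28.6% of them, the arrays of apoM overexpression and NC did not overlap, beside 24.4% of all genes. In 4 of the 10 the apoM arrays were higher (LCN2, SAA1, NFKBIA and RELA; 11.4% of members, 17.3% of all genes). In the other 6 they were lower (NFKBIZ, ICAM1, TNFAIP3, CXCL3, REL and CXCL1; 17.1% of members, 7.08% of all genes). All 10 were among the 28 members above the median level of all genes, 35.7% of these, beside 34.0% of all genes above that level. There 14.3% of members were higher and 21.4% lower, beside 23.4% and 10.6% of genes. An adjusted p under 0.05 was reached by 3.57% of these members and 3.83% of these genes. These shares are given as a description, without a test of the difference between the members and other genes. An unadjusted p under 0.05 was reached by 8 members, 3 higher and 5 lower, and by 19.1% of all genes, 14.3% higher and 4.85% lower.

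**Figure D1:**
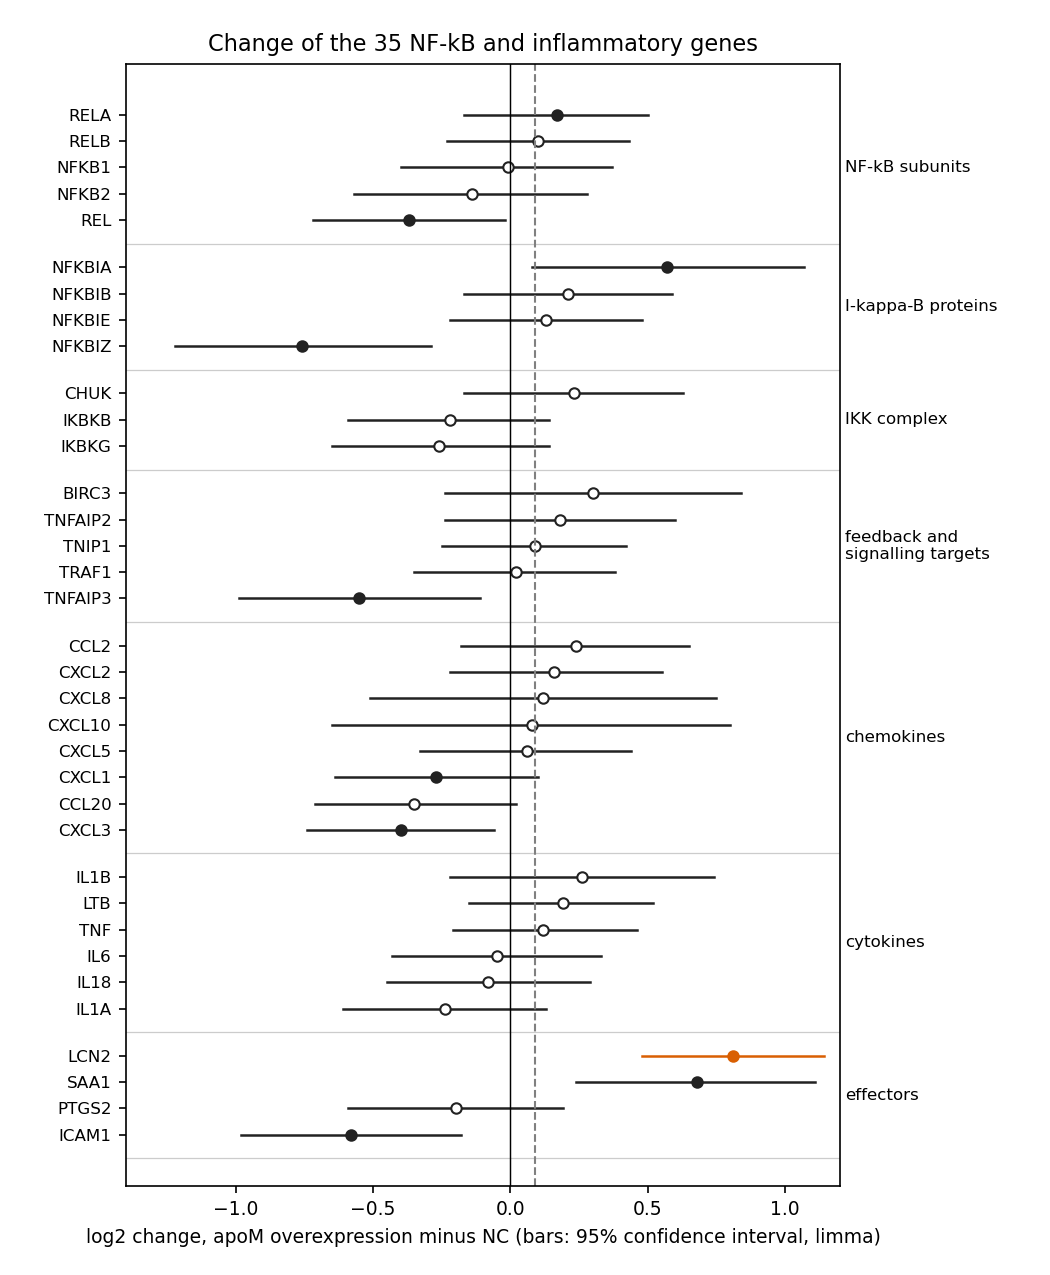
Log2 change of each of the 35 members (apoM overexpression minus NC, 3 arrays each) with its 95% confidence interval from limma, grouped by role. The dashed line is the median change of all genes tested (0.09), filled points mark the 10 members whose groups did not overlap, and LCN2 is the member in orange because it passed an adjusted p of 0.05.

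**Figure D2:**
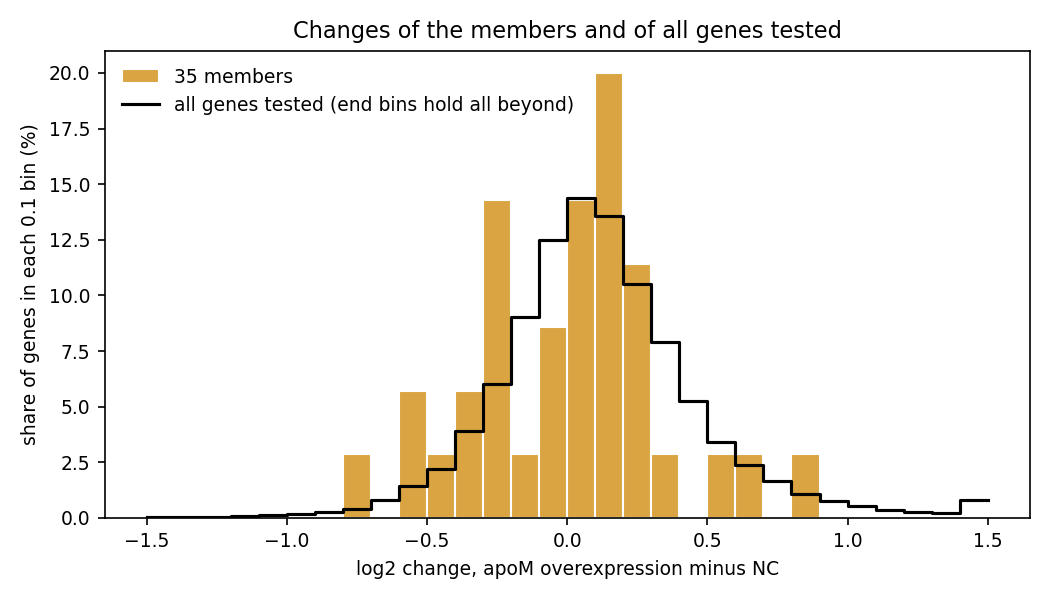
Share of genes in each bin of 0.1 of log2 change (apoM overexpression minus NC), as bars for the 35 members and as a black line for all 33616 genes tested. The members spread on both sides of 0, with a median of 0.08, and LCN2 is the bar farthest to the right.

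The secreted defence protein LCN2 had the smallest p and the widest gap between groups of the 35 members. Its log2 value was 6.94, 6.93 and 7.12 in apoM overexpression replicates 1, 2 and 3, against 6.20, 6.23 and 6.13 in NC replicates 1, 2 and 3. The lowest apoM array lay 0.70 above the highest NC array, while arrays of 1 group lay within 0.2 of one another. The group means were 6.997 ± 0.11 with apoM and 6.189 ± 0.05 in NC (SD, n = 3 arrays each). On the log2 scale LCN2 rose by 0.81 (SE 0.15, 95% confidence interval 0.48 to 1.14; limma, adjusted p = 0.0342). By exact permutation (two-sided) its p was 0.1, which is as small as 3 arrays against 3 allow. Every member whose groups did not overlap had the same permutation p, so it is not particular to LCN2. NC replicate 3 was the lowest NC array for LCN2, so its value did not lie toward the apoM arrays as on the first principal component. By unadjusted p LCN2 ranked 303 among all genes tested, and 1275 genes had a change at least as large. In RNA of whole cultures, more cells making LCN2 and more LCN2 RNA per cell cannot be told apart.

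The size of the LCN2 difference changed little between settings, whereas its adjusted p did not always pass. With 1 array left out the log2 change ran from 0.75 to 0.84, and the adjusted p in limma passed without NC replicate 3 (0.0284) and not without any of the other 5 arrays (0.079 to 0.126). LCN2 spans 4001 bases, and protein-coding genes spanning under 5 kb had a median change of 0.14 against 0.03 for those of 20 kb or more; with the trend on gene span removed from the protein-coding genes, LCN2 had a change of 0.64 (SE 0.15, adjusted p = 0.0629).

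**Figure D3:**
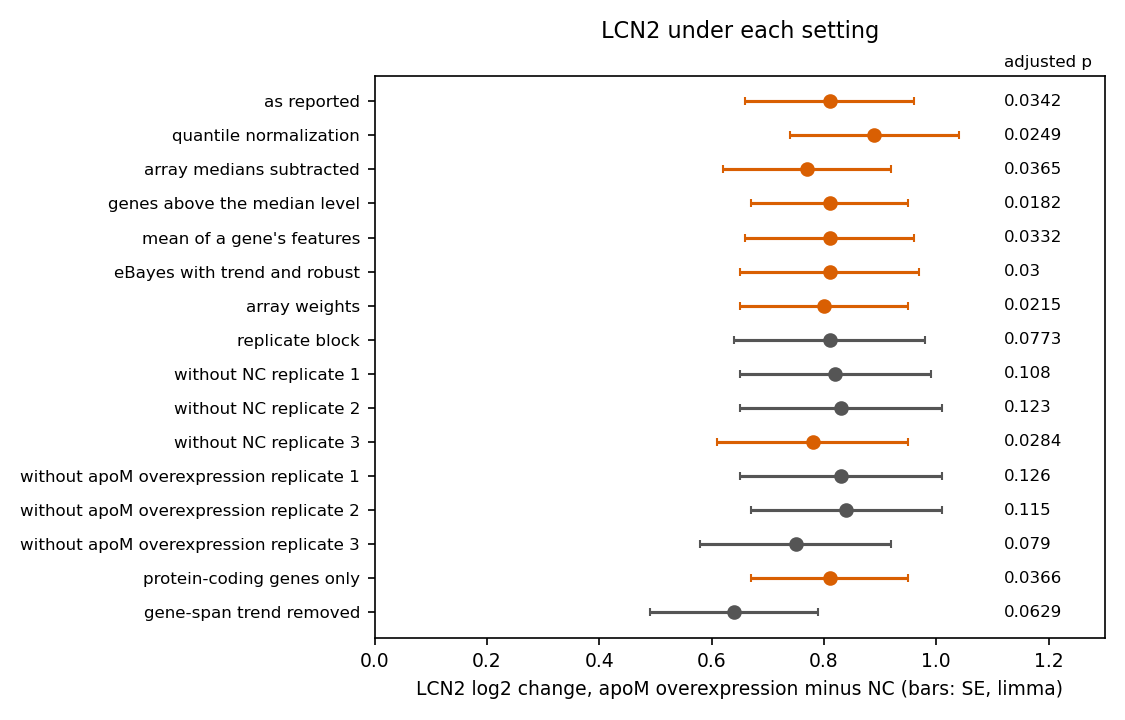
LCN2 log2 change (apoM overexpression minus NC) with its standard error under the reported setting and 15 alternatives, with the adjusted p of each at the right and orange for those under 0.05. Every value lies between 0.64 and 0.89, and the adjusted p lies between 0.0182 and 0.126 over the alternatives.

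The sequence before the transcription start is shown for 4 members, LCN2 with the 2 lower and the other higher member of smallest p that have a promoter in the RefSeq table and non-overlapping groups, because NF-kB is known to act through short kappa B sites in such regions. Each line gives the 250 bases before the start farthest upstream, from RefSeq on GRCh38.p14, read 5′ to 3′ on the gene's strand. Capitals mark a match to the kappa B consensus GGGRNWYYCC on either strand. In it R is A or G, N is any base, W is A or T and Y is C or T. LCN2 is at chr9:128149203-128149452 on the plus strand, NFKBIZ at chr3:101827740-101827989 on the plus strand, ICAM1 at chr19:10270870-10271119 on the plus strand, and NFKBIA at chr14:35404750-35404999 on the minus strand.
LCN2: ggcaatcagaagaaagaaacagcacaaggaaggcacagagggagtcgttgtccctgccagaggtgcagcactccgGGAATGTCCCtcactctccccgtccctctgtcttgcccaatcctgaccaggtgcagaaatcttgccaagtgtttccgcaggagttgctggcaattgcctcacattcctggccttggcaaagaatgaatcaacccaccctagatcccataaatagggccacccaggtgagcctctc
NFKBIZ: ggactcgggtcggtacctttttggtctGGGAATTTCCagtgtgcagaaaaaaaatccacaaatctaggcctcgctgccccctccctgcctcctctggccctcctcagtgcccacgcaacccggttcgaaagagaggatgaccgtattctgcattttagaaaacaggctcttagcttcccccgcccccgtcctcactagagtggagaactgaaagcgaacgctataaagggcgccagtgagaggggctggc
ICAM1: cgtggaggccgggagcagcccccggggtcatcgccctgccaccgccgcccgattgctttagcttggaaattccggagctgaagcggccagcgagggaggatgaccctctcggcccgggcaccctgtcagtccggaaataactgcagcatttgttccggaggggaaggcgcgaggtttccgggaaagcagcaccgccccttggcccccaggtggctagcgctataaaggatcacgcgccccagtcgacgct
NFKBIA: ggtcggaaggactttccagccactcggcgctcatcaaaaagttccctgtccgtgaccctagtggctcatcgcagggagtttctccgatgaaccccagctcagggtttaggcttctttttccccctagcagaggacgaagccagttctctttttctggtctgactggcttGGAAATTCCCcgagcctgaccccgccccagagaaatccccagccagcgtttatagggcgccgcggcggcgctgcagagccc
The match of LCN2 lies 175 to 166 bases before the start and reads GGGACATTCC on the strand opposite to the gene. That of NFKBIZ begins 223 bases before the start and reads GGGAATTTCC on the gene's strand. NFKBIA has the same letters, on the opposite strand, ending 72 bases before its start. ICAM1 has no match, which says only that no stretch of this window fits every letter of the consensus. Its line holds TGGAAATTCC, which departs from the consensus in the first letter alone.

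Matches stood before members with changes in both directions. Of the 35 members, 29 were in the promoter table, and 16 of these, 55.2%, held a kappa B match within 250 bases, beside 5.07% of 27305 promoters of the same length. The members were picked as NF-kB genes, so this share describes the choice. Of the 16 with a match, 8 had a change above 0 and 8 below 0, with changes from -0.76 to 0.81. Of the 13 without one, 8 were above 0 and 5 below, with changes from -0.58 to 0.26. Sites that depart from the consensus in any letter were not counted, so these 13 may hold such sites. The chemokine genes CXCL1, CXCL2 and CXCL3 carried the same site at nearly the same place:
CXCL1: GGGAATTTCC
CXCL2: GGGAATTTCC
CXCL3: GGGAATTTCC
It begins 79, 78 and 79 bases before the start of CXCL1, CXCL2 and CXCL3, on the strand of each gene, and the log2 changes of these 3 genes, in the same order, were -0.27, 0.16 and -0.40.

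Among the subunits that form the NF-kB dimers, none of 5 passed the threshold, and 1 had an unadjusted p under 0.05 (limma). Of all genes tested, 2.06% passed and 19.1% had such a p. REL, which encodes c-Rel, had log2 values of 9.69, 9.63 and 9.55 in the 3 apoM overexpression arrays and 10.18, 9.92 and 9.88 in the 3 NC arrays. All 3 apoM arrays lay below all 3 NC arrays, with a gap of 0.195, and the change was -0.37 (SE 0.16, adjusted p = 0.23). RELA, the subunit with the main transactivation domain of the classical dimer, read 9.19, 9.29 and 9.07 with apoM, against 9.06, 8.92 and 9.06 in NC. Its groups were apart by 0.01, less than the spread within either group, with a change of 0.17 (SE 0.15, adjusted p = 0.597). NFKB1, whose product is processed to the DNA-binding partner of RELA, read 10.38, 10.46 and 9.98 with apoM and 10.24, 10.39 and 10.23 in NC. Its groups overlapped and its change was -0.01, with a 95% confidence interval from -0.40 to 0.37. NFKB2 and RELB, the pair of the alternative pathway, had changes of -0.14 (SE 0.19) and 0.10 (SE 0.15), each with overlapping groups.

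The IKK complex, whose kinases mark I-kappa-B proteins for destruction, had no member past the threshold and none at an unadjusted p under 0.05. Over all genes these shares were 2.06% and 19.1%. CHUK, which encodes the alpha kinase, read 6.79, 7.24 and 7.26 with apoM, against 6.74, 6.96 and 6.90 in NC. Replicate 1 of apoM overexpression lay within the NC arrays, and the change was 0.23 (SE 0.18, adjusted p = 0.532). IKBKB, the beta kinase, had a change of -0.22 (SE 0.16) on its brighter feature and of 0.07 (SE 0.27) on the other, to which the annotation gives no gene ID. IKBKG, the regulatory subunit, had a change of -0.26 (SE 0.18); a partial copy of this gene lies near it in the human genome, so its signal is uncertain.

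Members of the I-kappa-B family lay at both ends of the set. NFKBIA, the classical inhibitor and a rapid NF-kB target, had log2 values of 11.36, 11.33 and 11.20 with apoM, against 10.22, 10.87 and 11.09 in NC. The apoM arrays were all higher, but NC replicate 3 lay 0.11 below the lowest of them and NC replicate 1 more than 0.6 below the other NC arrays. The change was 0.57 (SE 0.22, 95% confidence interval 0.08 to 1.07, adjusted p = 0.196), and it was 0.32 without NC replicate 1 and 0.75 without NC replicate 3 (adjusted p = 0.473 and 0.0767). NFKBIZ encodes the nuclear protein I-kappa-B-zeta, which in mouse macrophages is needed for induction of Lcn2 and Il6. It read 10.21, 10.16 and 9.83 with apoM, against 11.15, 10.86 and 10.45 in NC. Every apoM array lay below every NC array, and the change of -0.76 (SE 0.21, 95% confidence interval -1.22 to -0.29) was the lowest of the members, with an adjusted p of 0.0831 in limma. LCN2 and NFKBIZ therefore lay on opposite sides of 0. For NFKBIZ, NC replicate 3 was again the NC array nearest to the apoM arrays, and the change depended on the array left out: it was -0.94 without NC replicate 3 (adjusted p = 0.0242), -0.59 without NC replicate 1 (adjusted p = 0.258) and -0.64 without apoM overexpression replicate 3 (adjusted p = 0.195). With all arrays kept and only genes above the median level tested, NFKBIZ had a change of -0.76 (limma adjusted p = 0.0478). The other inhibitors, NFKBIB and NFKBIE, had changes of 0.21 (SE 0.17) and 0.13 (SE 0.16) with overlapping groups.

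Of the 5 feedback and signalling targets none passed, and 1 had an unadjusted p under 0.05, beside 2.06% and 19.1% of all genes. TNFAIP3, the ubiquitin-editing enzyme that shuts off signalling to IKK, read 13.04, 13.17 and 13.35 with apoM, against 14.13, 13.50 and 13.58 in NC. The apoM arrays were the lower ones, with a gap of 0.148, and NC replicate 1 was at least 0.5 above the other NC arrays. The change was -0.55 (SE 0.20, 95% confidence interval -0.99 to -0.11, adjusted p = 0.166); without NC replicate 1 it was -0.35 and without NC replicate 2 it was -0.67 (adjusted p = 0.429 and 0.211). TNIP1, which binds the product of TNFAIP3 and acts with it, had a change of 0.09 (SE 0.15). TNFAIP2 had a change of 0.18 (SE 0.19) and TRAF1, an adaptor of TNF receptors, of 0.02 (SE 0.16). BIRC3, a ubiquitin ligase that takes part in TNF receptor signalling, had a change of 0.30 (SE 0.24) on a feature without a gene ID.

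None of the 8 chemokines passed, and CXCL3 alone, 12.5% of them, had an unadjusted p under 0.05, beside 2.06% and 19.1% of all genes. The neutrophil attractants CXCL1, CXCL2, CXCL3, CXCL5 and CXCL8 had changes from -0.40 to 0.16. CXCL3 read 6.43, 6.62 and 6.49 with apoM, against 6.81, 6.89 and 7.05 in NC. Its apoM arrays all lay below its NC arrays, with a gap of 0.187, and the change was -0.40 (SE 0.15, 95% confidence interval -0.74 to -0.06, adjusted p = 0.188). CXCL1 read 6.70, 6.52 and 6.77 with apoM, against 6.87, 6.77 and 7.15 in NC. Apart by only 0.0036, its groups gave a change of -0.27 (SE 0.17, adjusted p = 0.425). CXCL1, CXCL2 and CXCL3 are close copies of one another whose probes may share transcripts, so their single values are uncertain. CCL20, which attracts dendritic cells and lymphocytes to the gut epithelium, read 11.34, 11.62 and 11.34 with apoM, against 11.62, 11.90 and 11.84 in NC. Replicate 2 of apoM overexpression lay above NC replicate 1 by less than 0.01, so the groups overlapped, with a change of -0.35 (SE 0.16, adjusted p = 0.285). CXCL8 ran from 6.60 to 7.55 with apoM and from 6.58 to 7.45 in NC. CXCL10, an attractant of T cells, ran from 4.75 to 5.66 with apoM and from 4.55 to 5.83 in NC. Both varied more within each group than between the group means, at changes of 0.12 (SE 0.28) and 0.08 (SE 0.32). CCL2, an attractant of monocytes, had a change of 0.24 (SE 0.19) and CXCL5 one of 0.06 (SE 0.17).

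The groups of all 6 cytokine genes overlapped, though only narrowly for IL1A and LTB. None of the 6 had an unadjusted p under 0.05 in limma. Over all genes 19.1% had such a p, and 24.4% had groups apart. IL18, a cytokine that epithelial cells hold as a precursor, read 10.07, 10.40 and 10.31 with apoM, against 10.50, 10.24 and 10.28 in NC. The arrays of both groups were interleaved, and the change was -0.08, with a 95% confidence interval from -0.45 to 0.29. IL1B and IL1A, the secreted and the cell-associated interleukin of that family, had changes of 0.26 (SE 0.21) and -0.24 (SE 0.17). LTB, a ligand of the alternative pathway, had a change of 0.19 (SE 0.15). TNF and IL6 had changes of 0.12 (SE 0.15) and -0.05 (SE 0.17), at mean levels of 3.22 and 3.72 with apoM and 3.10 and 3.77 in NC. Both of these levels lay below the median level of all genes tested, as did those of 7 members in all, and with no measure of background in the table a difference could go unseen there.

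The other 3 effector genes went in both directions. SAA1, an acute-phase apolipoprotein carried on high-density lipoprotein, read 7.88, 8.09 and 7.78 with apoM, against 6.89, 7.31 and 7.53 in NC. The apoM arrays were the higher ones with a gap of 0.25, NC replicate 3 being the nearest. The change was 0.68 (SE 0.19, 95% confidence interval 0.24 to 1.11), a 1.60-fold difference with an adjusted p of 0.0955 in limma, and it too depended on the array left out: it was 0.82 without NC replicate 3 (adjusted p = 0.0437), 0.59 without apoM overexpression replicate 2 (adjusted p = 0.243) and 0.50 without NC replicate 1 (adjusted p = 0.279). SAA1 has a near-identical neighbour, SAA2, so which of them was read is uncertain. ICAM1, the adhesion molecule that binds leukocyte integrins, read 8.60, 8.29 and 8.83 with apoM, against 9.12, 9.06 and 9.29 in NC. All 3 apoM arrays were lower, with a gap of 0.23 between the groups and a change of -0.58 (SE 0.18, 95% confidence interval -0.98 to -0.18, adjusted p = 0.114). PTGS2, which encodes the inducible cyclooxygenase, had a change of -0.20 (SE 0.17) and overlapping groups.

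**Figure D4:**
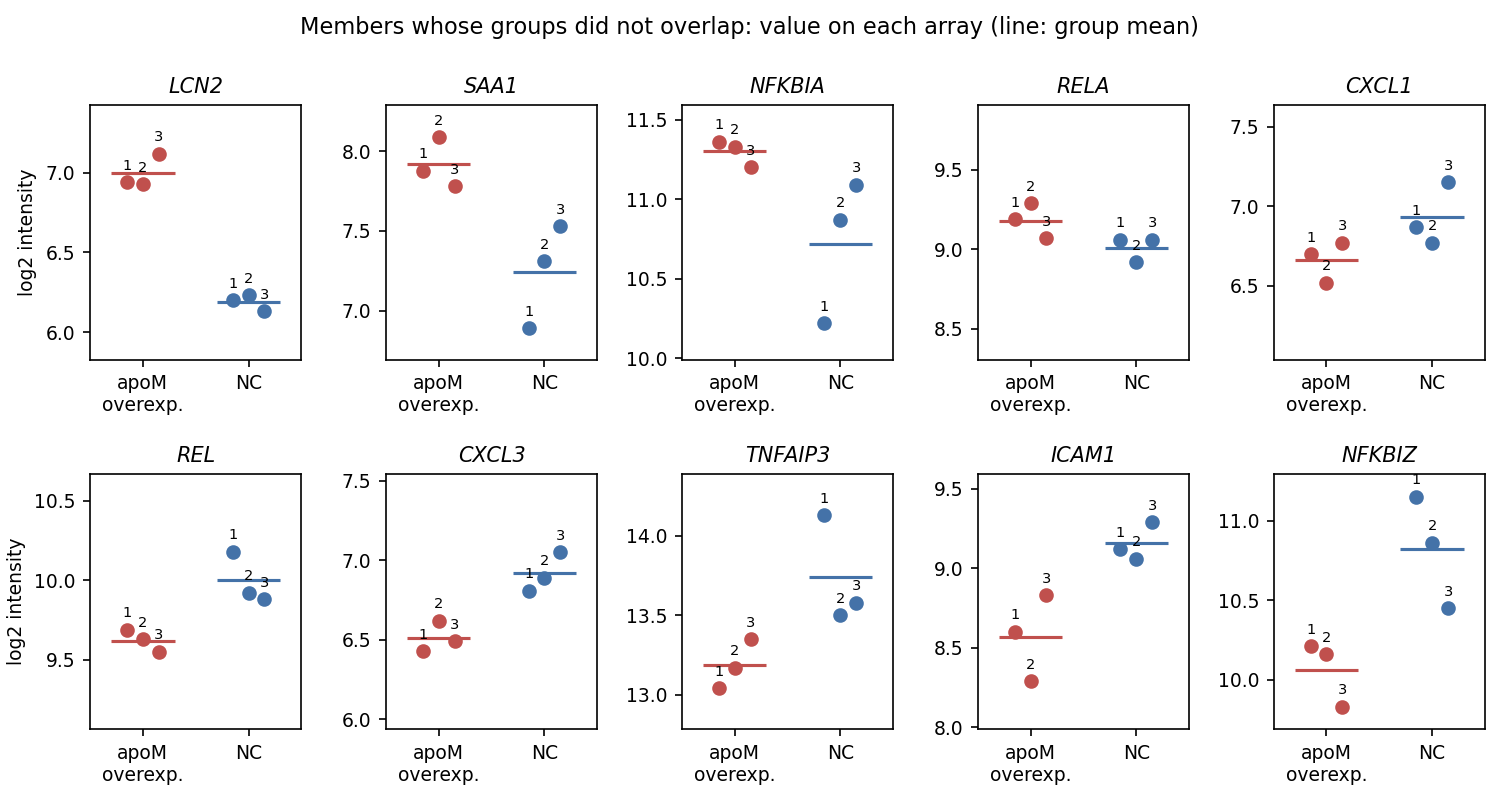
Log2 intensity on each array (points, numbered by replicate) and group mean (line) for the 10 members whose groups did not overlap, apoM overexpression left and NC right, each panel spanning 1.6 log2 units. LCN2 has the widest gap between the groups (0.70), and CXCL1 and RELA have gaps of 0.0036 and 0.01.

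Other genes of the pathway lay on both sides of 0, with 46 changes above and 47 below. Of 104 listed, 93 were measured and none passed an adjusted p of 0.05 in limma, which 2.06% of all genes passed. An unadjusted p under 0.05 was found for 17, 8 higher and 9 lower. That is 18.3% beside 19.1% of all genes, of which 14.3% were higher and 4.85% lower. The median change of the 93 was -0.01, against 0.09 over all genes, and the groups did not overlap in 26.9% of them, beside 24.4% of all genes. Among the adaptors and kinases upstream of IKK, 2 of 31 had an unadjusted p under 0.05 in the higher direction and 4 in the lower one, together 19.4% beside 19.1% of all genes. TRAF5, a TNF receptor adaptor, had a change of -0.64 (adjusted p = 0.116), TAB3, a subunit of the TAK1 kinase complex, of -0.48, TRAF3, an inhibitor of the alternative pathway, of -0.48, and MAP3K14, the kinase of that pathway, of -0.49. Among 11 other inhibitors and feedback genes, COMMD1, which promotes the removal of RELA, averaged 9.69 ± 0.13 with apoM and 8.71 ± 0.48 in NC (SD, n = 3 arrays each), a change of 0.98 (limma adjusted p = 0.0584). TNFAIP8 had a change of 0.60, N4BP1 of -0.37 and NFKBID of -0.20.

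The 43 further targets measured held 4 with an unadjusted p under 0.05 that were higher and 5 that were lower, together 20.9% beside 19.1% of all genes, and none passed an adjusted p of 0.05. CFLAR, an inhibitor of death receptor signalling, averaged 12.81 ± 0.06 with apoM and 13.40 ± 0.13 in NC (SD, n = 3 arrays each), a change of -0.59 (limma adjusted p = 0.0701). IL32, a cytokine, had a change of 0.89 (adjusted p = 0.0836), TNFRSF9, a TNF receptor family member, of -0.69 (adjusted p = 0.1) and C3, the central complement protein, of -0.49 (adjusted p = 0.154). The list around LCN2 itself holds its receptors, its partner MMP9 and regulators known to induce it. None of its 9 members passed or had an unadjusted p under 0.05, beside 2.06% and 19.1% of all genes. CEBPB, a transcription factor that acts with NF-kB at acute-phase genes, averaged 8.09 ± 0.01 with apoM and 7.84 ± 0.09 in NC (SD, n = 3 arrays each), a change of 0.25 with groups apart (limma adjusted p = 0.389). MC4R, LRP2 and IL22RA1 had changes of 0.44, -0.20 and 0.14 with overlapping groups.

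LCN2 is also a granule protein of neutrophils, so markers of other cells were read beside it. None of 6 neutrophil markers passed or had an unadjusted p under 0.05 (limma), beside 2.06% and 19.1% of all genes. All 6 lay below the median level of all genes. Their mean level was 3.72 to 3.88 on the apoM overexpression arrays and 3.62 to 4.003 on the NC arrays, with overlap. ELANE, the neutrophil elastase, and MPO, the myeloperoxidase, had changes of -0.02 and -0.05. Of the leukocyte markers 11 of 12 were measured, of the fibroblast markers 7 of 8 and of the endothelial markers 6 of 6. None of these passed, with median changes of -0.08, -0.09 and 0.05. Their mean levels were 5.30 to 5.37, 5.54 to 5.66 and 4.70 to 4.96 on the apoM overexpression arrays. On the NC arrays they were 5.20 to 5.49, 5.59 to 5.69 and 4.71 to 4.78. Single markers were brighter: the fibroblast marker COL1A1 averaged 9.03 with apoM and 9.30 in NC, and the leukocyte marker CD68 8.79 and 8.61. Groups were apart in 2 leukocyte, 2 fibroblast and 1 endothelial markers (18.2%, 28.6% and 16.7%), beside 24.4% of all genes.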

How the data were processed

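Total RNA of Caco-2 cells was read on Affymetrix arrays. The range of the deposited values is that of log2 intensities. Per the submitters' processing notes the authors used Affymetrix Expression Console; its version, the normalization and the build are not given in the sources. The table held 135750 features per array, was not normalized again and has no measure of background. Features with 1 gene symbol in the platform annotation (36176) were looked up in the RefSeq genes of GRCh38.p14, 25516 by gene ID and 9899 by symbol, and the brightest feature of each gene was kept, giving 33616 genes.

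limma 3.58.1 in R 4.3.3 gave the differences, apoM overexpression minus NC (lmFit and eBayes, two-sided), with p-values adjusted by Benjamini-Hochberg across the 33616 genes and a threshold of 0.05. The procedure was tested on simulated data with noise drawn independently for each gene. That simulation held no variation shared by the genes of an array, so it does not cover such variation in these data. Unadjusted p-values under 0.05 are given as counts. The kappa B consensus was searched on both strands of the 250 bases before each gene's most upstream RefSeq start. Figures used matplotlib 3.10.9.

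The members, lists, alternatives and naming rule were chosen with earlier results of these data known. Values on every array are given for LCN2, members with an unadjusted p under 0.05 or groups apart, the brightest member of each role and the largest changes. Up to 4 genes of smallest p are named from each list of other pathway genes. Markers were named to describe the cells. Alternatives were quantile normalization, array medians subtracted, eBayes with trend and robust, the mean over a gene's features, array weights, genes above the median level, a replicate block, each array left out, protein-coding genes only, the lowess trend (span 0.3) on gene span removed and an adjusted p of 0.1.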

Additional observations from a re-analysis of the deposited data

How the results depend on the processing

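LCN2 kept its direction under all 15 alternatives, with log2 changes from 0.64 to 0.89, but its adjusted p in limma missed the threshold with the replicate number as a block (0.81, adjusted p = 0.0773), with the gene-span trend removed (0.64, adjusted p = 0.0629) and with 5 of the 6 arrays left out in turn (0.75 to 0.84). The labels share replicate numbers between groups, but the deviations of same-numbered arrays correlated at -0.07, 0.03 and -0.07 across genes, so the reported fit has no block. The count of members past the threshold was 1 as reported, 2 among genes above the median level, 3 at an adjusted p of 0.1, 0 with the replicate block and 0 with the span trend removed, and 0 to 3 with 1 array left out; the 3 without NC replicate 3 were LCN2, NFKBIZ and SAA1. The median change of the members was 0.024 without apoM overexpression replicate 1, within a range of 0.024 to 0.078 with 1 array left out, and -0.05 with the span trend removed. Removing that trend also moved the median over all protein-coding genes, from 0.077 to -0.005. None of the other pathway genes passed as reported, against 2 with quantile normalization, 3 among genes above the median level, 2 with eBayes trend and robust, 3 with array weights, 1 with the span trend removed, 3 at an adjusted p of 0.1, and 0 to 5 with 1 array left out; COMMD1 was among them in each of the settings that passed any at 0.05, and CFLAR in all of these but the removal of the span trend. The count over all genes was 691 as reported, 1730 among genes above the median level, 1251 with eBayes trend and robust, 1679 with array weights, 50 with the replicate block, 195 among protein-coding genes only, 241 with the span trend removed and 2327 at an adjusted p of 0.1. With 1 array left out it ran from 2 to 2358. The 13 other members whose arrays are listed kept their direction in 190 of 195 combinations. The exceptions were NFKB1 and IL18. The change of NFKB1 was 0.13 if replicate 3 of apoM overexpression was dropped, 0.04 if replicate 2 of NC was, and 0.01 with the span trend removed, within -0.11 to 0.13 over the fits with 1 array left out. That of IL18 was 0.02 if replicate 1 of apoM overexpression was dropped and 0.00 if replicate 1 of NC was, within -0.15 to 0.02. The causes were not tested, and fits without an array have fewer samples. Without a measure of background, differences of dim members cannot be bounded.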
